A study of Homo sapiens with 14 samples.

Results

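Abundant and imprinted long noncoding RNAs were followed through the mixtures, 10 of the 58440 genes counted in each library. They were MALAT1, NEAT1, GAS5, SNHG1, SNHG5, SNHG6, SNHG8, H19, MEG3 and KCNQ1OT1, each found in the count files by the gene identifier that GENCODE pairs with the symbol. The rule uses names and no measured value, although earlier results of these data were known when the names were picked. All 10 are annotated as long noncoding RNA genes, and all 10 were matched.

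The RNA-seq set held 14 libraries, 2 for each of 7 proportions in which a pair of human cell lines, HEK-293T and Jurkat, had been combined. The conditions were pure HEK, mixtures with 80%, 60%, 50%, 40% and 20% HEK cells and Jurkat for the rest, and pure Jurkat, all without drug or gene perturbation. HEK-293T is an adherent human embryonic kidney line transformed by adenovirus and carrying the SV40 large T antigen, and Jurkat is a T cell leukemia line grown in suspension, so that each stands for 1 cultured line and not for a tissue. The study used the known proportions to test how well expression of mixed cells can be separated into its sources. mRNA was taken up on oligo-dT beads and synthetic ERCC spike-in RNAs were put in before cDNA was made. The cDNA was primed with an oligo-dT primer that carried a sequencing linker and a barcode. Both libraries of a condition are described as technical replicates, and all p-values therefore measure only the spread between such libraries.

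Long noncoding RNAs do not encode a known protein and act, where a function is known, as RNA. MALAT1 is a nuclear RNA of splicing speckles and NEAT1 is the scaffold of paraspeckles, 2 kinds of nuclear body. GAS5 and the SNHG genes are snoRNA hosts: the small nucleolar RNAs that guide ribosomal RNA modification are cut from their introns, while the spliced exons reach the cytoplasm, where they are broken down by nonsense-mediated decay. H19, MEG3 and KCNQ1OT1 are imprinted, that is, expressed from the chromosome of 1 parent, and KCNQ1OT1 is made antisense to KCNQ1 and silences its neighbours on the same chromosome.

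In GRCh38, MALAT1 lies at chr11:65497640-65508073 on the plus strand, 52099 bases from the end of NEAT1 at chr11:65422774-65445540 on the same strand. SNHG1 is also on chromosome 11, at chr11:62851978-62855953 on the minus strand, as are H19 at chr11:1995166-2004552 and KCNQ1OT1 at chr11:2597308-2700003, both on the minus strand of the imprinted cluster at the chromosome end. GAS5 is at chr1:173858559-173868882 on the minus strand, SNHG5 at chr6:85650491-85678932 on the minus strand, SNHG6 at chr8:66920561-66926398 on the minus strand, SNHG8 at chr4:118278703-118285316 on the plus strand and MEG3 at chr14:100779410-100861031 on the plus strand.

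RefSeq places 11 snoRNA genes within GAS5, 9 within SNHG1, 2 within SNHG5, 1 within SNHG6 and 1 within SNHG8, and none within the other 5 genes. The libraries are described as strand-specific, but whether the counting used strand was not stated. KCNQ1OT1 overlaps KCNQ1, MALAT1 overlaps its antisense gene TALAM1, and GAS5, SNHG6 and SNHG8 each overlap a gene of the other strand. If strand was not used, reads of such pairs were not separated where they overlap.

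snoRNA hosts are known for starts of the terminal oligopyrimidine kind, a C at the first transcribed base followed by C or T only, a feature they share with ribosomal protein genes. The windows that follow are shown because most of these hosts often lay opposite to the nuclear RNAs MALAT1 and KCNQ1OT1 between libraries, as given further on. The window of SNHG6 is not shown. Each runs from 10 bases before the start used by most GENCODE 44 transcripts of the gene through 20 bases from it, 5′ to 3′ on the transcribed strand of GRCh38, and capitals mark the C and the pyrimidines that follow it from the first transcribed base. A window without capitals has no C at that base.
GAS5, chr1:173867970-173867999, minus strand: accatactgtCTTTTCgaggtaggagtcga
SNHG8, chr4:118278748-118278777, plus strand: aggcctcggcCTTTCacattcgggaagcgt
SNHG1, chr11:62855866-62855895, minus strand: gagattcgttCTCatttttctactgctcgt
SNHG5, chr6:85678729-85678758, minus strand: ggagctactggctgcgcacttcggtctttt
SNHG5, a start 15 bases further on, chr6:85678714-85678743, minus strand: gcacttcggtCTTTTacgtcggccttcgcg
MALAT1, chr11:65499035-65499064, plus strand: gctgtgcggtaggcattgaggcagccagcg
KCNQ1OT1, chr11:2699975-2700004, minus strand: gtctccaggcagaacggtcgccgcgtcgcc

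A C followed by at least 4 more pyrimidines opened the most used start of GAS5, SNHG6 and SNHG8, 3 of the 10 genes, beside 3.24% of the most used starts of 18339 genes. SNHG1 had 3 pyrimidines there and the motif only at a start of 1 of its 80 transcripts, and SNHG5 only at a start of 3 of its 89. No annotated start of MALAT1, NEAT1, H19, MEG3 or KCNQ1OT1 carried it. The motif was looked for on the transcribed strand at annotated starts only, and a match describes letters, not use of the start in these cells. Between the libraries of a condition, SNHG6, GAS5 and SNHG8 lay on the side of MALAT1 in 4, 2 and 1 of 7 conditions. SNHG1 and SNHG5, without the motif at the most used start, did so in 1 and 0. A link between the motif and these sides was not tested.

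Because the RNA was taken up and primed by oligo-dT, runs of A within the transcripts are shown as well. MALAT1 and the long form of NEAT1 end without the usual poly(A) tail, as background. In each window capitals mark the longest run of A on the transcribed strand within annotated exons.
MALAT1, chr11:65506089-65506119, plus strand: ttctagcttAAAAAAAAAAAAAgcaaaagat
NEAT1, chr11:65440834-65440873, plus strand: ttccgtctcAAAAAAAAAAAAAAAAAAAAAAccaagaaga
KCNQ1OT1, chr11:2610708-2610754, minus strand: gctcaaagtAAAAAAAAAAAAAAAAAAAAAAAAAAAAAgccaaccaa

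Runs of at least 12 A on the transcribed strand numbered 10 in KCNQ1OT1, 5 in SNHG5, 3 in NEAT1 and 1 each in MALAT1 and MEG3, and none were found in GAS5, SNHG1, SNHG6, SNHG8 and H19. On the opposite strand there were 4 in KCNQ1OT1, 3 each in MALAT1 and SNHG5, 2 in NEAT1 and 1 each in GAS5 and MEG3. Among 18339 genes, 24.3% held such a run on the transcribed strand, at 0.638 per 10 kb of exon, beside 3.97 in SNHG5, 1.32 in NEAT1, 1.08 in KCNQ1OT1, 0.958 in MALAT1 and 0.431 in MEG3.

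Depth ranged from 4468822 to 28303668 gene counts, the shallowest being the pure Jurkat libraries, and spike-ins made up 0.674% to 7.65% of all counts. The file names fall into 2 groups whose meaning is not given. Pure HEK and pure Jurkat libraries lie in different groups, so that line and file-name group cannot be told apart there. The libraries of the 50% and of the 60% mixture are split between the groups. The 8 HEK markers fixed as a list summed to 1407 to 1597 CPM (counts scaled to a gene total of 1e+06 per library) in pure HEK and 41.4 to 54.5 in pure Jurkat, where 4 of 8 were at or under 3 counts and 1 was at 0. The 10 T cell markers summed to 4.71 to 8.68 CPM in pure HEK and 2429 to 2856 in pure Jurkat. Each line thus carried its own markers.

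The 10 genes together took 0.222% and 0.266% of gene counts in pure HEK and 0.426% and 0.663% in pure Jurkat. Levels are compared between genes as TPM, which divides by the transcript length that RSEM weighted in each library. With cDNA primed by oligo-dT, counts need not grow with that length, and whether they do was not tested. The order of genes given here is therefore one of TPM and can differ from an order by counts. By TPM, MALAT1 led in both lines, with 1144 and 1382 in pure HEK and 3856 and 6651 in pure Jurkat, and its mean ranked 131 among all genes in HEK and 14 in Jurkat. The order below it in HEK was SNHG5, GAS5, SNHG8, SNHG6, NEAT1, SNHG1, H19, KCNQ1OT1 and MEG3, and only H19 and KCNQ1OT1 overlapped as neighbours. In Jurkat the order was MALAT1, SNHG6, SNHG5, GAS5, SNHG8, SNHG1, NEAT1, KCNQ1OT1, MEG3 and H19, with overlap between SNHG6 and SNHG5, between GAS5 and SNHG8, between SNHG1 and NEAT1 and between MEG3 and H19.

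**Figure D1:**
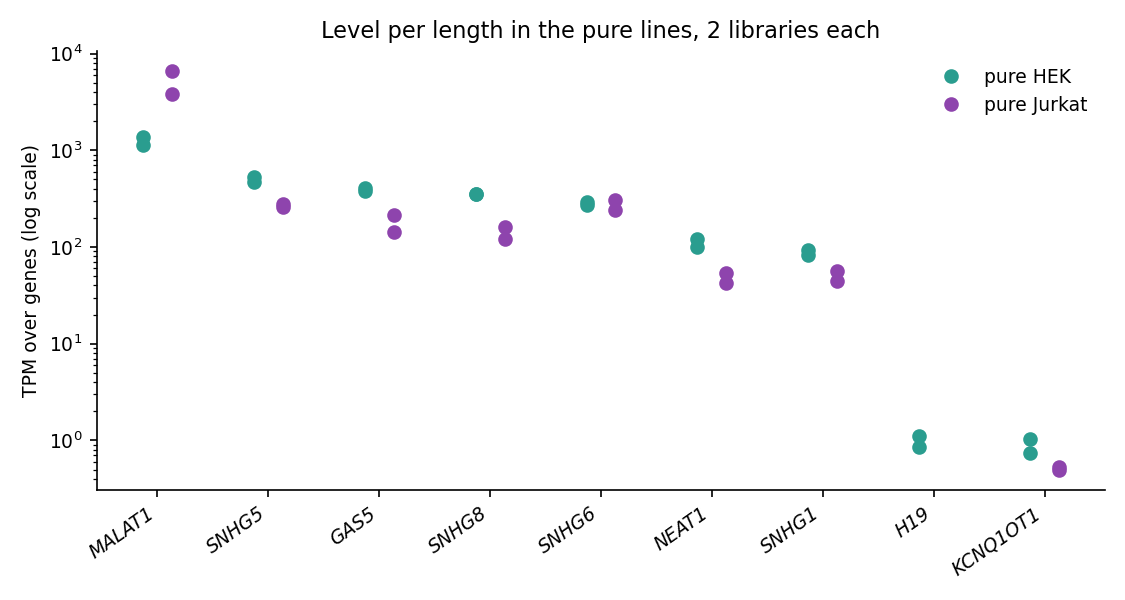
TPM over genes on a log scale for 9 long noncoding RNAs in pure HEK (green) and pure Jurkat (purple), each point 1 library, ordered by the mean in HEK. The order is one of TPM and differs by CPM. MALAT1 lies above the other 8 in both lines, H19 has no point for Jurkat because both libraries were at 0, and MEG3 is not drawn.

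The length of KCNQ1OT1 in the files was 91667 bases, and its TPM was 0.746 and 1.02 in pure HEK and 0.5 and 0.531 in pure Jurkat. Its place rests on that length: its mean ranked 15908 among all genes by TPM in pure HEK but 2188 by CPM. In pure Jurkat it ranked 17270 by TPM and 3503 by CPM. H19, above it by TPM in pure HEK, ranked 16417 there by CPM. For MALAT1 the length weighted by RSEM was 923 to 1262 bases and for NEAT1 1184 to 2986 bases, short beside gene spans of 10434 and 22767 bases, and TPM of these genes moves with that length. For NEAT1 the libraries with 50% HEK held 180 and 162 CPM but 81.7 and 131 TPM, so that the order of the libraries differed between the scales. Levels of a gene between libraries are therefore given in CPM from here on.

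Pure HEK and pure Jurkat were compared to ask which of these RNAs differ between the lines that were mixed. MALAT1 was lower in HEK, while NEAT1 and the snoRNA hosts GAS5, SNHG5 and SNHG8 were higher in HEK, and SNHG1, SNHG6 and KCNQ1OT1 did not pass the test. H19 and MEG3 had too few counts to enter it. Of the 8 tested, 4 were higher in HEK, beside 24.2% of 15794 genes tested, and 1 was lower, beside 19%, where 43.2% of genes passed in either direction. Their median log2 difference was 0.69 and that of all genes was 0.07. Differences are from edgeR's quasi-likelihood test with TMM scaling, a log2 difference is HEK minus Jurkat, SE is the standard error, and adjusted p is the Benjamini-Hochberg value over all 15794 genes. The number of cells was fixed by design, and CPM, a share of the counts of a library, does not give an amount per cell.

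MALAT1 was at 1148 and 1540 CPM in the pure HEK libraries and at 3685 and 6018 CPM in the pure Jurkat libraries. Both Jurkat libraries lay above both HEK libraries, and the Jurkat mean was 3.61-fold the HEK mean. The log2 difference was -2.08 (SE 0.338, adjusted p = 0.00789), and the sign turned when libraries were scaled by spike-ins, as described further on.

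NEAT1, the neighbour of MALAT1 on the same strand, went the other way. Its level was 200 and 237 CPM in pure HEK and 117 and 111 CPM in pure Jurkat, without overlap. The log2 difference was 0.72 (SE 0.208, adjusted p = 0.0423), and it missed the threshold with DESeq2 (adjusted p = 0.0565) and when any of the 4 libraries was left out (adjusted p from 0.0793 to 0.251). On TPM, by limma on log2(TPM + 1), it was 1.18 (adjusted p = 0.0227).

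Among the snoRNA hosts, GAS5 held 249 and 237 CPM in pure HEK and 80.8 and 128 CPM in pure Jurkat. GAS5 takes part in growth arrest and binds the glucocorticoid receptor, as background, and its HEK libraries lay above its Jurkat libraries with a log2 difference of 0.99 (SE 0.285, adjusted p = 0.0409). SNHG8 was at 115 and 114 CPM in HEK against 57.7 and 44.3 CPM in Jurkat, a log2 difference of 0.94 (SE 0.222, adjusted p = 0.0234). SNHG5 was at 257 and 235 CPM in HEK against 128 and 120 CPM in Jurkat, a log2 difference of 0.76 (SE 0.194, adjusted p = 0.0292). For these 3 hosts no HEK library overlapped a Jurkat library. With a pure library left out, the number of the 10 genes called higher fell from 4 to 0 without either HEK library and to 1 without either Jurkat library (SNHG8 or GAS5), while MALAT1 stayed past the threshold each time (adjusted p from 0.00902 to 0.0372).

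SNHG1 and KCNQ1OT1 had HEK libraries above Jurkat libraries without passing the test. SNHG1 held 66.7 and 72.9 CPM in HEK and 41.6 and 34.3 CPM in Jurkat (log2 difference 0.65, SE 0.213, adjusted p = 0.0578). KCNQ1OT1 held 69.9 and 93.8 CPM in HEK and 42.9 and 47.1 CPM in Jurkat (log2 difference 0.64, SE 0.24, adjusted p = 0.085). Both passed when library totals replaced TMM factors, with adjusted p of 0.0244 for SNHG1 and 0.0346 for KCNQ1OT1, a scaling under which the median of all genes was 0.29 and not 0.07.

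SNHG6 was the host with the least difference. It was at 118 and 131 CPM in HEK and 108 and 128 CPM in Jurkat, so that the lines overlapped. The log2 difference was -0.15 (SE 0.213, adjusted p = 0.611), and it took the other sign, 0.08, on library totals. In all, 6 of the 8 tested genes had both HEK libraries above both Jurkat libraries in CPM, beside 47.2% of all genes tested, and 1 had both Jurkat libraries above, beside 27.6%.

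H19, a maternally expressed RNA abundant in fetal tissue, was near the limit of detection. It had 8 and 10 counts in the pure HEK libraries, or 0.846 and 0.66 CPM, and 0 counts in both pure Jurkat libraries, where a count of 0 allows up to 0.671 and 0.484 CPM. Set against 3 counts per library, the HEK mean was at least 1.3-fold higher. In the 10 mixed libraries H19 had 6 to 25 counts, or 0.464 to 1.37 CPM, so that every library with HEK cells in it had more than 3 counts. MEG3, the maternally expressed RNA of the chromosome 14 cluster, had 4 counts in 1 pure HEK library, 0 in the other, 0 and 1.06 in pure Jurkat and at most 3.02 in any mixture. No difference in MEG3 was detectable at this depth. Floors and limits of this kind cover counting error only.

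The partners of these imprinted RNAs in their clusters are named for their position, after their values were seen. Beside H19, IGF2, a fetal growth factor, had 22.8 and 74.7 counts in HEK and 0 in both Jurkat libraries and passed the test (adjusted p = 0.0146 by edgeR). Around KCNQ1OT1, the potassium channel gene KCNQ1 had 11 and 20 counts in HEK and 0 in Jurkat, while KCNQ1OT1 itself had 192 and 292 counts in those Jurkat libraries. CDKN1C, an inhibitor of cyclin-dependent kinases in the same cluster, was at 9.73 and 9.63 CPM in HEK and 9.62 and 17.2 CPM in Jurkat and did not pass the test (adjusted p = 0.144). PHLDA2, a placental growth regulator there, had 21 and 33 counts in HEK and 0 in Jurkat and passed (adjusted p = 0.0107 by edgeR). The transporter gene SLC22A18 had 29 and 50 counts in HEK and 37.6 and 23.5 in Jurkat and did not pass (adjusted p = 0.0887 by edgeR). Around MEG3, DLK1, RTL1, MEG9 and DIO3 were at 0 counts in all 4 pure libraries, and MEG8 had 1 and 4 counts in HEK and 2 and 1 in Jurkat.

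**Figure D2:**
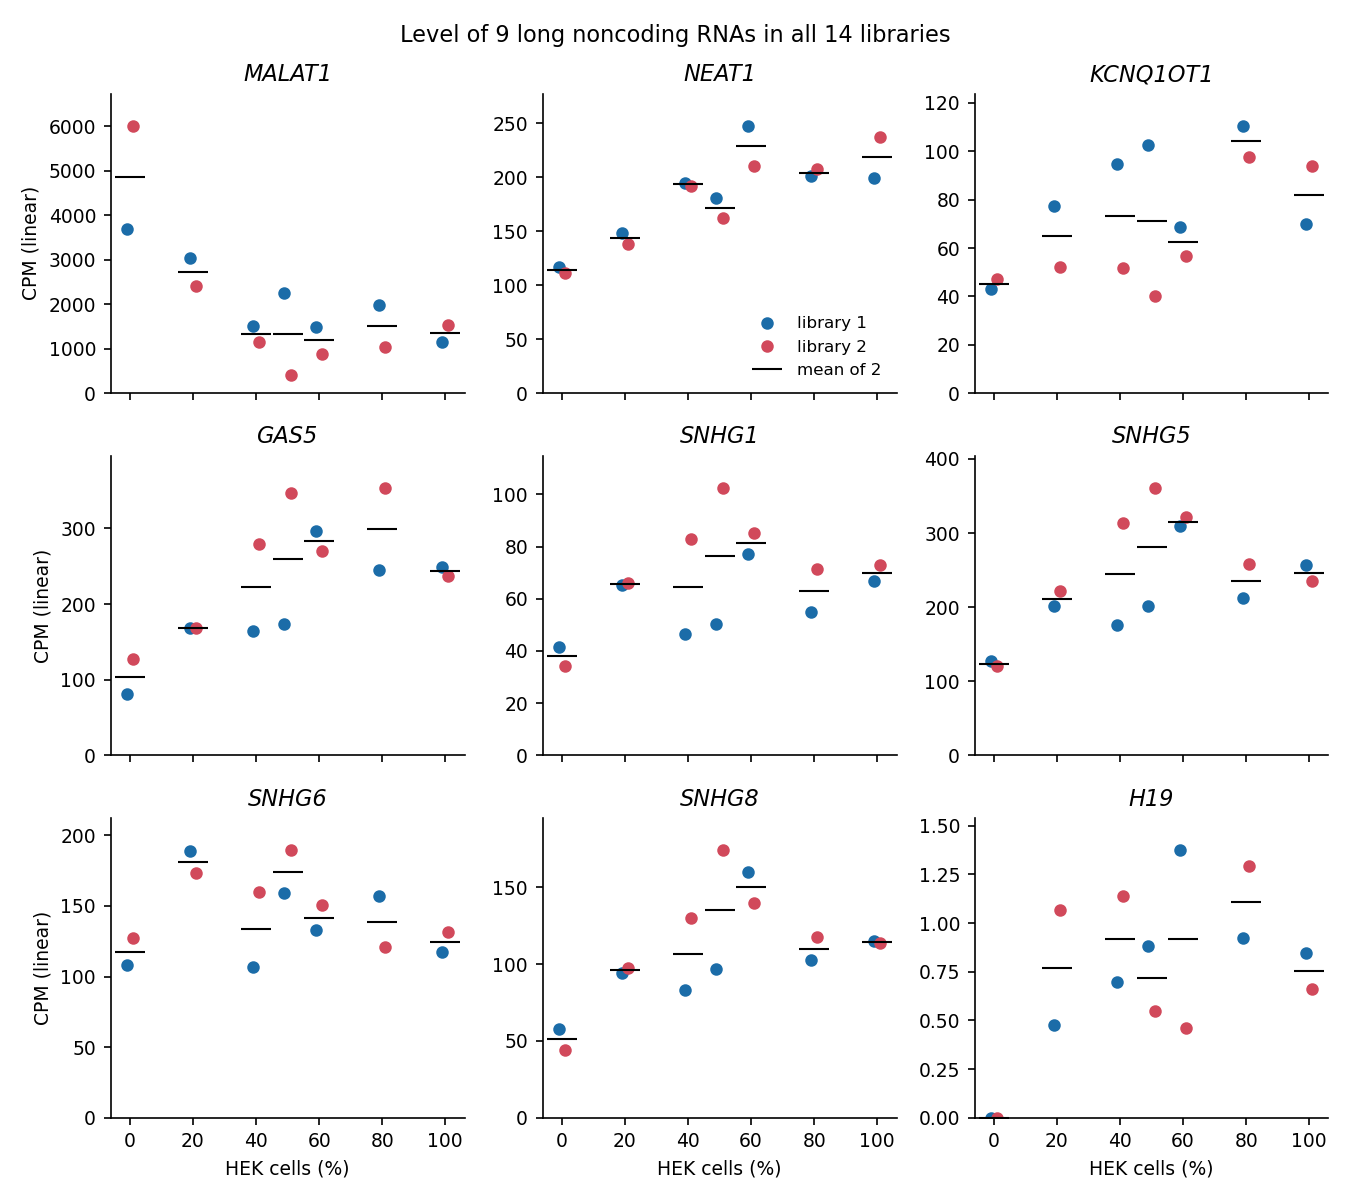
CPM on a linear scale against the percentage of HEK cells for 9 long noncoding RNAs, with blue and red points for libraries 1 and 2 of each condition and a bar for their mean. MALAT1 falls from 6018 and 3685 CPM in pure Jurkat to at most 2242 CPM from 40% HEK cells upward, NEAT1 keeps its 2 libraries close in each condition, and H19 is at 0 only in pure Jurkat.

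Across the mixtures, the question was whether levels follow the share of HEK cells. MALAT1 was at 3041 and 2410 CPM with 20% HEK cells, 1515 and 1152 with 40%, 2242 and 405 with 50%, 1494 and 888 with 60% and 1979 and 1035 with 80%. The libraries with 20% HEK cells were the highest of the 10 mixed libraries, and those from 40% upward overlapped with each other and with pure HEK. NEAT1 was at 149 and 138 CPM with 20%, 194 and 192 with 40%, 180 and 162 with 50%, 248 and 210 with 60% and 201 and 207 with 80%. NEAT1 at 20% lay above both pure Jurkat libraries and below all other mixed libraries.

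GAS5 was at 168 and 169 CPM with 20% HEK cells, 165 and 280 with 40%, 173 and 347 with 50%, 296 and 270 with 60% and 245 and 353 with 80%. SNHG5 was at 202 and 221 CPM with 20%, 176 and 314 with 40%, 202 and 361 with 50%, 309 and 321 with 60% and 212 and 258 with 80%. KCNQ1OT1 was at 77.4 and 52.2 CPM with 20%, 94.8 and 51.9 with 40%, 102 and 40 with 50%, 68.7 and 56.7 with 60% and 111 and 97.6 with 80%. For these 3 genes the libraries of the 40% and of the 50% mixture lay so far apart that the conditions overlapped widely. SNHG1, SNHG6 and SNHG8 ranged over the mixtures from 46.4 to 102 CPM, from 107 to 189 CPM and from 82.9 to 174 CPM.

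None of the 9 genes with enough counts passed the test of a slope on the percentage of HEK cells over the 10 mixed libraries (edgeR), beside 5.47% of 18516 genes tested (0.643% upward and 4.82% downward). None therefore passed both this test and that of the pure lines in the same direction, beside 5.77% of genes tested in both. GAS5 alone of the 9 had an unadjusted p under 0.05, with a log2 slope of 0.13 per 10 percentage points (SE 0.0444, adjusted p = 0.118 by edgeR), and DESeq2 called it (adjusted p = 0.0403). The slope of MALAT1 was -0.14 (SE 0.0999, adjusted p = 0.499 by edgeR) and that of NEAT1 0.08 (adjusted p = 0.295). That of MALAT1 was -0.26 without library 1 with 80% HEK cells, -0.08 without library 1 with 20% and -0.07 with a term for the group of file names, and it did not pass in any of these fits. These mixed libraries were not used in the comparison of the pure lines. Among the markers, 1 of the 8 HEK markers passed this slope test upward, and all 10 T cell markers passed it downward. HEK RNA was already 60.6% and 61.7% of the RNA with 20% HEK cells, as estimated below, which leaves little room for a further rise. The test therefore does not decide whether genes higher in HEK follow the percentage of HEK cells.

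The share of RNA that came from HEK cells was estimated for each mixed library from 100 marker genes per line that did not include any gene described here. HEK RNA made up 60.6% and 61.7% of the RNA with 20% HEK cells, 85.3% and 81.8% with 40%, 86% and 83.4% with 50%, 91.7% and 90.1% with 60% and 99.5% and 98.7% with 80%. From it and the levels in the pure lines, a level expected from additive mixing was computed. The question was whether the mixtures hold any of these RNAs at a level that mixing alone does not give.

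None of the 9 genes tested lay beyond a log2 difference of 1 from additive mixing in edgeR's quasi-likelihood fit, at adjusted p or at an unadjusted p under 0.05, beside 0.0702% of 18516 genes past the adjusted threshold (0.054% above and 0.0162% below). MALAT1 was below its expected level in 7 of 10 libraries, with log2 observed over expected of -0.40 ± 0.793 (SD, n = 10). The lowest value was -2.25, in the library with 50% HEK cells at 405 CPM where 1925 CPM were expected, and the highest was 0.54. NEAT1 was below in 8 of 10, by less, at -0.12 ± 0.176 (SD, n = 10).

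SNHG6 was the gene most often outside the range of the pure lines. Its mixed libraries were above the highest pure library in 8 of 10 cases, below the lowest in 1 and within the range in 1. Its pure libraries spanned only 108 to 131 CPM, so that small differences already fall outside that range. The share of all genes that lie outside their pure range as often was not computed. With 20% HEK cells it held 189 and 173 CPM against 122 CPM expected in each, and with 50% 159 and 189 against 123. Log2 observed over expected was 0.30 ± 0.276 (SD, n = 10) and above 0 in 8 of 10 libraries, and a test against 0 in place of 1 called SNHG6 (log2 0.32, adjusted p = 0.0292 by edgeR) and none of the other 8. Under that test 2588 genes of all 18516 were called.

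**Figure D3:**
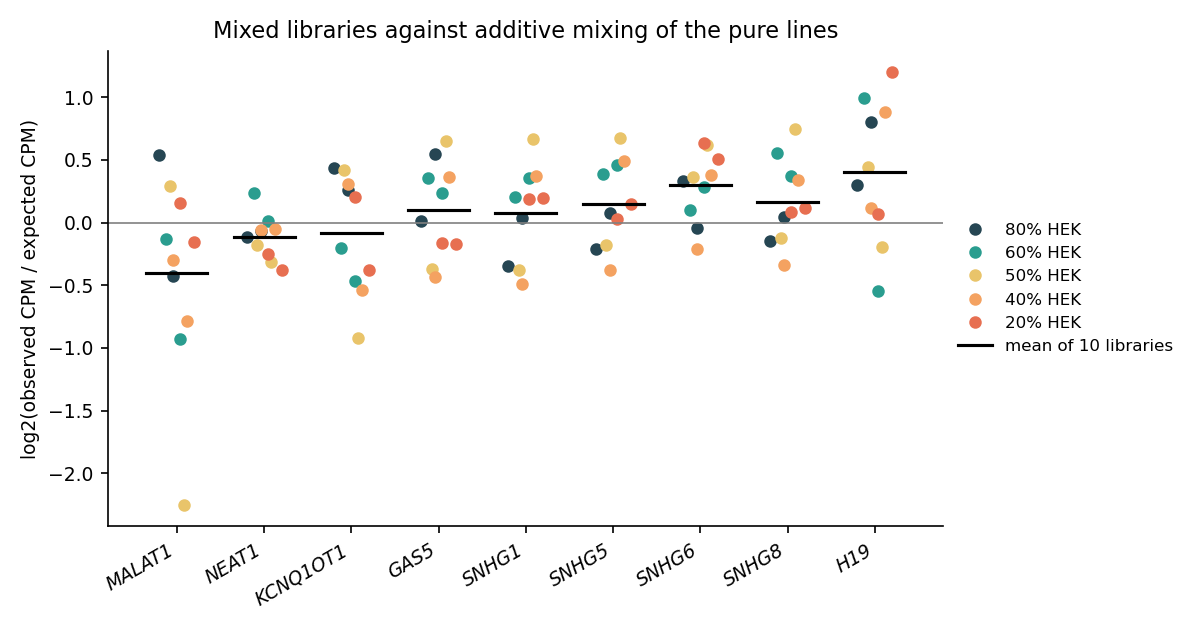
Log2 of observed over expected CPM in the 10 mixed libraries for 9 long noncoding RNAs, colored by the percentage of HEK cells, with black bars for the mean of 10 libraries. SNHG6 lies above 0 in 8 of 10 libraries, NEAT1 below 0 in 8 of 10, and 1 library with 50% HEK cells puts MALAT1 at -2.25.

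For the other genes the mean log2 of observed over expected was 0.10 ± 0.383 for GAS5, 0.08 ± 0.375 for SNHG1, 0.15 ± 0.346 for SNHG5, 0.16 ± 0.337 for SNHG8, 0.41 ± 0.562 for H19 and -0.09 ± 0.474 for KCNQ1OT1 (SD, n = 10 each). Each mean was smaller than its SD. Within the groups of file names, GAS5 averaged -0.09 over the 6 mixed libraries of the first group and 0.39 over the 4 of the second, and MALAT1 averaged -0.29 and -0.57. The expectation itself has a limit: over the 10 T cell markers the median log2 difference from it was 0.93, beside 0.05 over the 8 HEK markers. With the share taken from Jurkat markers alone, a choice made after this was seen, none of the 9 genes was called either, and SNHG6 stayed at 0.32.

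The libraries of a condition differed from each other in a way that split these RNAs. Those with 50% HEK cells lie in different file-name groups, as do those with 60%, so that library and group cannot be told apart there. In each other condition both libraries share a group. With 50% HEK cells, the library with 2242 CPM of MALAT1 and 102 CPM of KCNQ1OT1 held 173 CPM of GAS5, 50.3 of SNHG1, 202 of SNHG5 and 96.7 of SNHG8. The other library of that condition held 405 CPM of MALAT1, 40 of KCNQ1OT1, 347 of GAS5, 102 of SNHG1, 361 of SNHG5 and 174 of SNHG8. MALAT1 thus differed 5.54-fold and KCNQ1OT1 2.56-fold in 1 direction, while the log2 differences of the 4 hosts in the other direction were 1.00 for GAS5, 1.03 for SNHG1, 0.83 for SNHG5 and 0.85 for SNHG8, beside 0.21 for the median gene. Of 8698 genes compared, 0.414% differed between those libraries by as much as MALAT1 and 4.47% by as much as KCNQ1OT1.

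The libraries with 40% HEK cells showed the split too, with KCNQ1OT1 at 94.8 and 51.9 CPM and SNHG5 at 176 and 314 CPM, but MALAT1 differed there by only -0.39 on the log2 scale. At 40%, 56.7% of genes differed by as much as MALAT1 and 12.6% by as much as KCNQ1OT1. The median gene differed there by 0.22 on the log2 scale, in the direction of SNHG5. Over the 7 conditions, the library with more MALAT1 was also the library with more KCNQ1OT1 in 7 of 7 and with more NEAT1 in 5, but with more SNHG5 in 0, with more SNHG1 or SNHG8 in 1 each, with more GAS5 in 2 and with more SNHG6 in 4. Among 8697 other genes, 1.37% lay on the side of MALAT1 in all 7 conditions and 2.38% on the other side in all 7, and 21.7% lay on the side of MALAT1 in 5 or more, as NEAT1 did. The share of genes on the side of MALAT1 in only 1 or 2 conditions, as for SNHG1, SNHG8 and GAS5, was not computed. Several of the differences counted were small, such as 0.00 on the log2 scale for GAS5 at 20% HEK cells.

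Across all conditions, the SD between libraries of a condition on the log2 scale was 0.779 for MALAT1, more than that of 97.7% of 8698 genes with at least 10 CPM on average and more than 3 counts in every library. It was 0.48 for KCNQ1OT1, 0.408 for GAS5, 0.379 for SNHG1, 0.329 for SNHG5, 0.312 for SNHG8 and 0.22 for SNHG6, beside a median of 0.314 over genes. NEAT1 had the least spread of the 8, 0.108, and only 0.621% of genes had less. Summed counts of ribosomal protein genes were 10.4% of gene counts in the 50% library with more MALAT1 and 14.9% in the other, and 10.2% and 12.8% in the same order with 40% HEK cells. In that order they were 11.2% and 11.9% in pure HEK, 10.9% and 12% with 80% and 10.8% and 10.8% with 20%, while the library with more MALAT1 had the higher share with 60% (13.3% and 13%) and in pure Jurkat (8.07% and 6.93%). Spike-ins made up 2.19% and 3.78% of counts in the 50% libraries and depth was 28303668 and 16404261 gene counts. The part of these measures in the split was not tested.

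**Figure D4:**
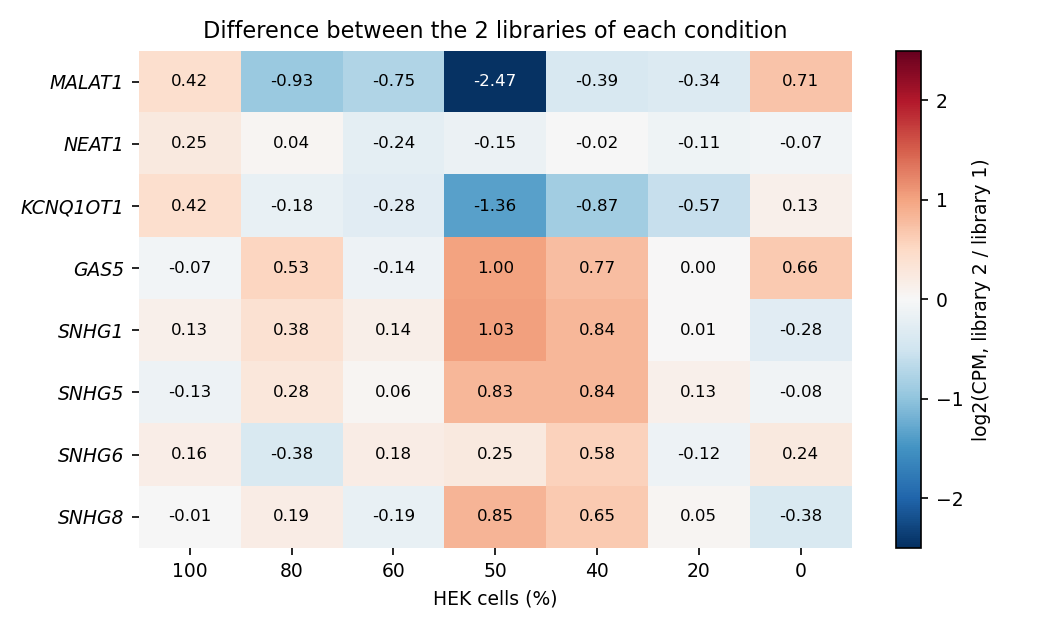
Log2 of CPM in library 2 over library 1 for 8 long noncoding RNAs, by percentage of HEK cells, red where library 2 is higher and blue where library 1 is higher. The numbering of libraries has no meaning of its own, and the plot shows which genes share a side: MALAT1 and KCNQ1OT1 do in all 7 columns, while GAS5, SNHG1, SNHG5 and SNHG8 lie opposite to them at 80%, 50% and 40%.

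Per spike-in count, a scale relative to the fixed amount of ERCC RNA put into the mRNA, the comparison of the pure lines read otherwise. Gene counts per ERCC count were 122 ± 35.5 in pure HEK and 12.2 ± 0.174 in pure Jurkat (SD, n = 2 each), a ratio of 10, and the median log2 difference of all genes was 3.61. This ratio would put HEK RNA at 71.5% with 20% HEK cells, where the markers gave 60.6% and 61.7%. With 40%, 50% and 60% the markers also gave the lower share, and with 80% the higher one. Folds per ERCC count rest on the same spike-in counts, and the cause of this disagreement was not tested. The study, by its own normalization to the spike-ins, reported a smaller ratio of mRNA content between HEK and Jurkat cells. Why that ratio differs from the one given here was not tested. Per 1000 ERCC counts, MALAT1 was at 169 and 150 in HEK and at 44.5 and 74.2 in Jurkat, so that HEK lay above Jurkat, the opposite of its CPM. Scaled by ERCC counts, the log2 difference of MALAT1 was 1.43 (adjusted p = 0.00444 by edgeR), which is 2.18 below the median of all genes.

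The other 7 tested genes were also higher in HEK on this scale. GAS5 was at 36.7 and 23.1 per 1000 ERCC counts in HEK and at 0.976 and 1.57 in Jurkat, a 23.5-fold difference of means. SNHG8 differed 22.5-fold, SNHG5 20.1-fold, NEAT1 18.9-fold, SNHG1 18.3-fold, KCNQ1OT1 17.7-fold and SNHG6 10.5-fold, and MALAT1 2.69-fold. All 8 had both HEK libraries above both Jurkat libraries, as did 93.6% of all genes tested, a share near that of the 8, and none had the reverse, beside 3.89%. Relative to the median of all genes, SNHG6 was 0.22 lower and the 6 other than it and MALAT1 0.54 to 0.95 higher on the log2 scale. With 2 libraries against 2, an exact permutation test of a single value cannot go below 0.333.

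**Figure D5:**
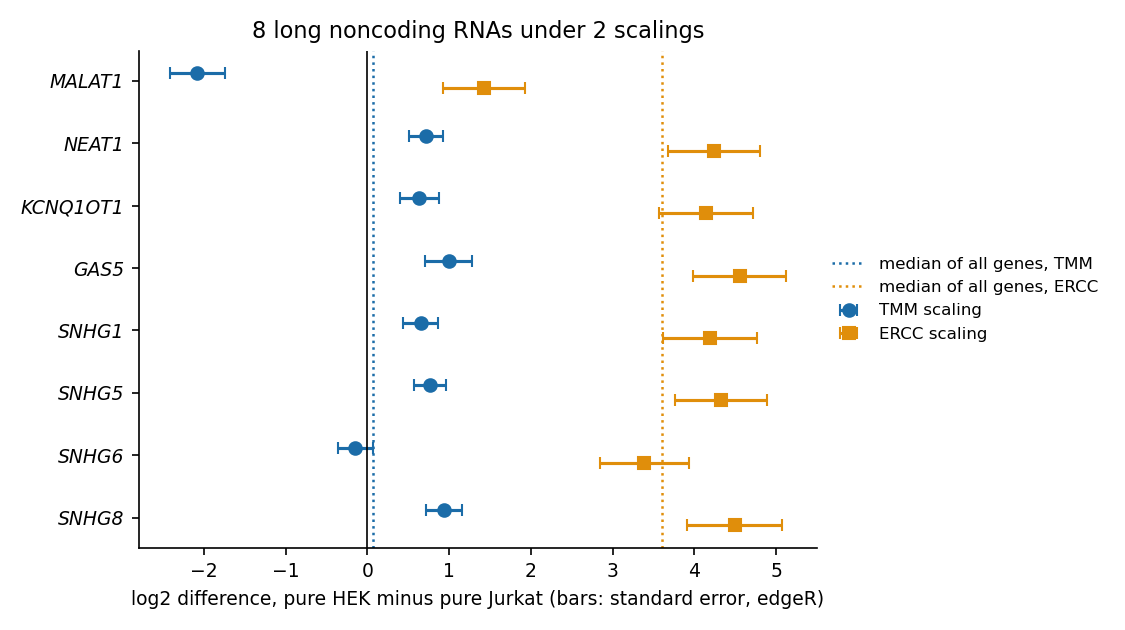
Log2 difference of pure HEK minus pure Jurkat for 8 long noncoding RNAs under TMM scaling (blue circles) and ERCC scaling (orange squares), with bars for the standard error from edgeR and dotted lines for the median of all genes under each. MALAT1 is at -2.08 under TMM and at 1.43 under ERCC scaling, below the dotted line in both.

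Other snoRNA hosts were examined as a list of 20. In the pure lines 6 were higher in HEK, 1 was lower and 13 did not pass, with a median log2 difference of 0.48. Of all genes tested, 24.2% were higher and 19% lower. SNHG16 was at 643 and 611 CPM in HEK and 129 and 179 in Jurkat (log2 difference 1.80), EPB41L4A-AS1 at 38.6 and 49.7 against 13.4 and 15.3 (1.39), and SNHG9 at 27.5 and 25.3 against 8.5 and 8.87 (1.38). The 1 lower in HEK was SNHG14, the long imprinted host transcript of the Prader-Willi region, with 2.1 and 8.05 counts in HEK against 64.4 and 41.3 CPM in Jurkat. Some of the 13 hosts that did not pass also had a negative sign. SNHG14 was also the gene of this list that passed the slope test, downward with HEK cells (-0.53 per 10 points, adjusted p = 0.00028 by edgeR).

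Imprinted genes other than the 3 above numbered 28, of which 14 had enough counts for the test of the pure lines. There 6 were higher in HEK and 4 lower, beside 24.2% and 19% of all genes tested, and 4 did not pass. PLAGL1, a zinc finger factor, was at 132 and 124 CPM in HEK and 5.59 and 4.19 in Jurkat, and ZDBF2 at 141 and 93 against 10.7 and 11.4. GRB10, a growth factor receptor adaptor, was at 29.6 and 31.3 CPM in HEK against 2 and 1 counts in Jurkat. In the Jurkat direction, SNRPN of the same region as SNHG14 was at 52.4 and 47.2 CPM against 4 and 2 counts in HEK. NDN, of that region too, had 0 counts in HEK and 11.9 and 15.6 CPM in Jurkat, at least 53.4-fold lower in HEK against 3 counts per library. NAP1L5 had 0 counts in HEK and 6.94 and 3.39 CPM in Jurkat, at least 20-fold lower. SNRPN, NDN and NAP1L5 passed the slope test downward with HEK cells, and SGCE, named after its values were seen, passed it upward. H19 and KCNQ1OT1 did not pass it. Over all genes in that test, 4.82% passed downward and 0.643% upward.

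Among 19 other long noncoding RNAs matched from a list of 20, 15 were tested, 2 were higher in HEK and 4 lower. The shares of all genes tested were 24.2% and 19%. HOTAIRM1, a transcript of the HOXA cluster, was at 93.9 and 90.6 CPM in HEK and 15.5 and 20.9 in Jurkat (log2 difference 2.11), and MIR17HG, the host of the miR-17 cluster, at 24.6 and 25.7 against 6.04 and 6.29 (1.80). The 4 lower in HEK were DLEU2 (-2.15), OIP5-AS1 (-1.86), CYTOR (-1.40), named after its values were seen, and MIAT (-4.99), the last with 1.04 and 6.27 counts in HEK. DLEU2 was at 35.9 and 35 CPM in HEK and 122 and 146 in Jurkat, and OIP5-AS1 at 91.7 and 106 against 281 and 334. Scaled by ERCC counts, DLEU2, OIP5-AS1 and CYTOR turned sign as MALAT1 did, to 1.40, 1.66 and 2.09, and MIAT did not.

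Proteins that work with these RNAs were compared between the pure lines in the same fit, where 24.2% of all genes were higher in HEK and 19% lower. Of 10 paraspeckle proteins 1 was lower in HEK, SMARCA4 (log2 difference -1.30), and 9 did not pass. Of 13 nuclear speckle proteins SRSF7 (1.24) and SRSF1 (0.85) were higher and SON, a speckle core protein, lower (-1.31). Of 10 nonsense-mediated decay factors UPF2 (-1.41) and UPF3A (-1.02) were lower, and of 9 snoRNP core proteins FBL, the methyltransferase of box C/D snoRNPs, was higher (0.91). Of 11 genes that keep imprinted silencing 10 were tested, with TRIM28 (1.11) and DNMT3B (1.37) higher and CTCF (-2.15), EZH2 (-1.77), DNMT3A (-2.61) and SUZ12 (-0.78) lower, SUZ12 being named after its values were seen. In CPM, CTCF, which binds the control region of H19, was at 237 and 197 in HEK and 893 and 749 in Jurkat. SMARCA4, SON, UPF2, UPF3A, CTCF, EZH2, DNMT3A and SUZ12 all took a positive sign under ERCC scaling, from 0.92 for DNMT3A to 2.77 for SUZ12.

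The genes whose levels were most like those of each RNA over the 14 libraries were taken by Pearson's r of log2(CPM + 1), among 9218 genes with at least 10 CPM on average. The points share 7 mixtures of the same lines, and r is a description. For MALAT1 these were SYNE2, a protein of the nuclear envelope (r = 0.943), and CCDC88A, which binds actin (r = 0.939). SYNE2 was at 86.4 and 163 CPM in HEK and 337 and 421 in Jurkat. For KCNQ1OT1 they were SEC63 of protein translocation into the endoplasmic reticulum (r = 0.91) and SPAG9, a kinase scaffold (r = 0.906), and for NEAT1 the homeobox gene HOXC10 (r = 0.941) and the amino acid transporter SLC16A10 (r = 0.937).

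The hosts had closer matches, other than SNHG6. For SNHG8 these were SRP68 of the signal recognition particle (r = 0.993) and the mitochondrial gene STOML2 (r = 0.991), and for SNHG5 the mitochondrial gene ROMO1 (r = 0.99) and RPS28P7 (r = 0.991), a pseudogene that can share reads with its parent RPS28. SNHG1 was closest to BRK1 of the WAVE complex (r = 0.985) and to SNU13, a snoRNP core protein (r = 0.983), and GAS5 to BRI3 (r = 0.967) and ECHS1 of fatty acid oxidation (r = 0.963). SNHG6 reached only 0.851 with CHMP2A of the ESCRT machinery and 0.846 with SURF2. For H19 the values of 0.936 with ACTN4 and 0.925 with GLO1 include the 2 Jurkat libraries at 0.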

How the data were processed

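Expected counts per gene from RSEM and TPM were deposited by the authors for 14 libraries, 2 technical replicates of each of 7 mixtures, after single-end reads were aligned with STAR 2.6.1b to GRCh38 joined with the 92 ERCC sequences and counted with RSEM 1.3.1. The annotation release and the use of strand in counting are not given in the sources used here. Expected counts were rounded for tests. Gene identifiers were matched to GENCODE release 44 (57754 of 58440), and spike-ins were left out of CPM and of TPM, which was rescaled over genes. Genes passing filterByExpr (minimum count 10) were fitted with edgeR 4.0.16 (quasi-likelihood, TMM, Benjamini-Hochberg, threshold 0.05) in R 4.3.3, and the standard error is the log2 difference divided by the root of F. Pure lines, a slope over the 10 mixed libraries, and the difference from additive mixing beyond a log2 value of 1 were tested. For the last, the HEK share of RNA was taken from 100 markers per line and the expected level was the share-weighted mean of the pure lines, not under 0.2 CPM. The error of the pure means was left out of this test, which is why it asked for a difference beyond 1. Alternatives were DESeq2 1.42.0, limma 3.58.1 on log2(TPM + 1), library totals, ERCC scaling, no filter, a term for the group of file names, other shares and leaving out each library. Scripts were tested on simulated data with a dispersion of 0.05. There 2-fold changes were recovered in 32% of cases between pure lines and in 40% for the slope over the mixtures. The additive test, whose limit is itself 2-fold, recovered 10% of them. Changes of 4-fold were recovered in 98% to 100%. Differences of 2-fold or less can therefore be missed by these tests.

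Depth was 4468822 to 28303668 gene counts, so that 3 counts, the floor used, were 0.106 to 0.671 CPM. The RNAs and lists were chosen with earlier results of these data known. From each list, up to 3 genes per direction with the smallest adjusted p in the pure lines were named, for each RNA with more than 3 counts in at least 7 libraries the 2 genes of highest correlation, and neighbours for their position.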

Additional observations from a re-analysis of the deposited data

How the results depend on the processing

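No paired analysis was possible because the labels carry no replicate numbers shared between groups. Between the pure lines 6827 genes passed in edgeR, 15125 when scaled by ERCC counts (14616 higher and 509 lower in HEK, against 3825 and 3002) and 3131 to 6227 with a library left out. Of the 10 RNAs, 4 were higher, against 8 with ERCC scaling, 7 without the filter on low counts and 0 to 1 with a library left out, and 1 was lower, against 0 with ERCC scaling. Among the RNAs and list genes named, the ERCC values with a changed sign were 1.43 for MALAT1, 3.39 for SNHG6, 1.40 for DLEU2, 1.66 for OIP5-AS1, 2.27 for SMARCA4, 2.28 for SON, 2.08 for UPF2, 2.51 for UPF3A, 1.43 for CTCF, 1.82 for EZH2, 0.92 for DNMT3A, 2.77 for SUZ12, 2.09 for CYTOR, 2.83 for CDKN1C and 2.35 for SLC22A18, beside a median shift of all genes to 3.61. SNHG6 also changed sign on library totals (0.0800), without the filter (0.0115) and on TPM (0.0601). The slope called 1012 genes, 480 with a term for the group of file names and 580 to 1218 with a library left out (580 and 643 without either library with 20% HEK cells), and DESeq2 called 1 of the 10 RNAs. The slope of SNHG1, 0.0017, was -0.0049 without the filter, -0.0023 in DESeq2, -0.0316 with the file-name term, -0.0111 on the share of HEK RNA and from -0.0099 to 0.027 with a library left out. Against 0 in place of 1, 2588 genes and 1 of the 10 RNAs were called different from additive mixing, not 13 and 0, without the error of the pure means. Beyond 1, 12 to 15 genes were called with a library left out, where KCNQ1OT1 ranged from -0.0796 to 0.0541. The cause of these changes was not tested. H19 and MEG3 are limited by depth.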
